A study of Homo sapiens with 6 samples.

Results

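The core of the Hippo pathway is formed here by 10 genes: the kinases STK4, STK3, LATS1 and LATS2, the adaptors SAV1, MOB1A and MOB1B, and the scaffolds and upstream proteins NF2, WWC1 and RASSF6. They were chosen by name and matched by NCBI gene identifier to the count table, which held all 10 among its 28395 genes. All 10 had enough reads to be tested, RASSF6 only through the group of libraries in which it was higher. The data are bulk RNA-sequencing of U251, an established human glioblastoma line with astrocytic features, in 3 wild-type (WT) libraries and 3 libraries of NUAK2-CR cells, in which the kinase gene NUAK2 was targeted with CRISPR-Cas9. Per the study's methods, targeted cells had received GFP and mCherry lentiviral vectors carrying a NUAK2 guide, double-positive cells were sorted into wells, and clones were grown out and screened by PCR. The labels list no drug treatment or time point, do not describe a vector control for the WT cells, and do not say whether the 3 libraries of a group came from separate cultures or clones. P-values therefore measure only the spread between these libraries, which may be technical, and the effect of the targeting cannot be told apart from differences between clones.

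The Hippo pathway is a kinase cascade that restrains growth. The MST kinases, encoded by STK4 and STK3, form a complex with the scaffold SAV1 and activate the LATS kinases together with the co-activators MOB1A and MOB1B, while NF2 and WWC1 bring the LATS kinases to the cell membrane. Active LATS kinases phosphorylate the transcriptional co-activators YAP and TAZ, which then stay out of the nucleus. NUAK2 is known from earlier work as a kinase that acts on the LATS kinases, and the study followed Hippo signaling in glioma cells in which it was targeted. These libraries show how the RNA of the cascade itself differed between WT and NUAK2-CR cells. RNA counts carry no information on phosphorylation.

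Counts on genes summed to between 35310946 and 55574081 per WT library and between 29648445 and 33776712 per NUAK2-CR library, with WT replicate 1 the deepest. NUAK2 itself (gene 81788) had 1926, 1457 and 1580 normalized counts in WT, against 799, 961 and 849 in NUAK2-CR, so that it was lower in all 3 NUAK2-CR libraries but still present (log2 fold change -0.93, adjusted p = 1.8e-05, edgeR's quasi-likelihood test). Normalized counts are read counts scaled to a common library size. Of 8 glioblastoma and astroglial markers, 6 were lower and 1 was higher in NUAK2-CR, and their summed normalized counts ranged from 335150 to 370980 in WT and from 150478 to 157962 in NUAK2-CR. None of the 8 was at 0. The defining immune markers PTPRC, AIF1 and ITGAM were at or under 3 counts in every library, as was MOG of oligodendrocytes. Of the remaining markers of these types, CD68 and MBP were called lower, and the summed markers ranged from 644 to 733 in WT and from 201 to 246 in NUAK2-CR for the immune list, and from 117 to 161 and from 38.4 to 51.9 for the oligodendrocyte list. Endothelial markers summed to between 17.2 and 31.2 normalized counts in WT and between 84.4 and 90.2 in NUAK2-CR, with 2 of 3 called higher. Neuronal markers summed to between 1041 and 1068 in WT and between 1317 and 1448 in NUAK2-CR, with 1 of 4 called higher, and epithelial markers to between 5288 and 6072 and between 6602 and 7175, with KRT18 higher and KRT8 lower. Beside these calls, 26.3% of all tested genes were called higher and 28.2% lower. The part that these marker differences had in the results for the Hippo genes was not tested. The libraries come from a cultured line, so the markers were not read as shares of tissue cell types. In bulk RNA, fewer cells with a marker and less of its RNA per cell cannot be told apart.

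Of the 10 genes, 7 differed between WT and NUAK2-CR cells at an adjusted p-value under 0.05, against 54.5% of the 14873 genes tested in the same fit. RASSF6, MOB1B, LATS1, STK3 and STK4 were higher in NUAK2-CR, 5 of 10 against 26.3% of all tested genes. WWC1 and NF2 were lower, 2 of 10 against 28.2%. LATS2, SAV1 and MOB1A did not pass the test. Of the 10 genes, 1 was a differentially expressed gene (DEG, adjusted p-value under 0.05 and absolute log2 fold change over 2), against 4.72% of all tested genes, and this was RASSF6. The same 7 genes that passed the test were those whose WT and NUAK2-CR normalized counts did not overlap, which held for 61.4% of all tested genes. The median log2 fold change of the 10 genes was 0.11, beside -0.01 for all genes tested.

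**Figure D1:**
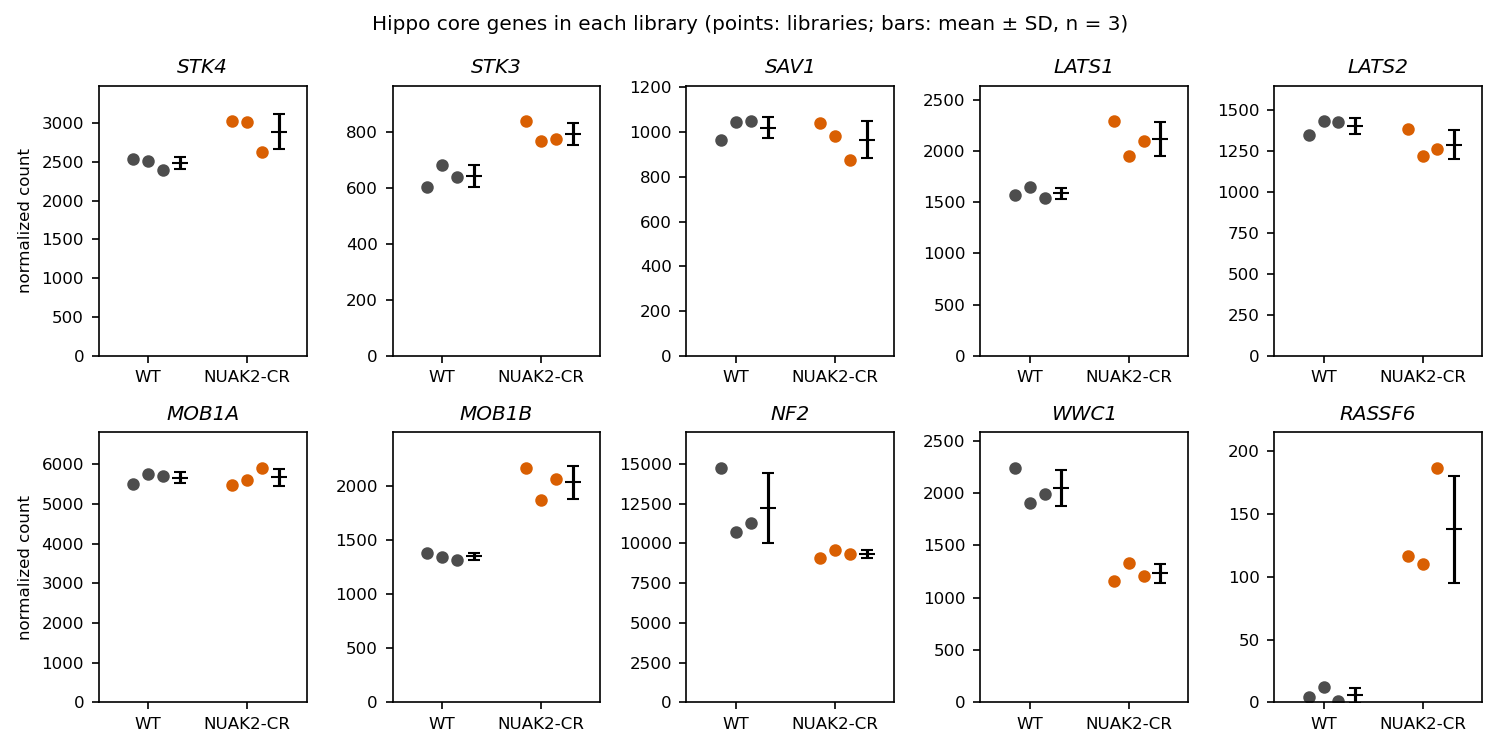
Normalized counts (y axis, each panel on its own linear scale starting at 0) of the 10 Hippo genes in the 3 WT libraries (grey points) and the 3 NUAK2-CR libraries (orange points). Bars are means ± SD. The groups are separate for 7 genes and overlap for LATS2, SAV1 and MOB1A, and the WT spread of NF2 comes from replicate 1 at 14751.5.

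RASSF6 (gene 166824, chromosome 4, 73571550 to 73620631, minus strand, hg38) encodes a Ras association domain protein that binds the MST kinases through its SARAH domain. It was nearly silent in WT and measurable in every NUAK2-CR library. Its raw counts were 6, 13 and 1 in WT and 92, 91 and 170 in NUAK2-CR, totals of 20 and 353. Mean normalized counts were 5.87 ± 5.96 in WT against 138 ± 42.5 in NUAK2-CR (SD, n = 3 each), and the highest WT library lay far below the lowest NUAK2-CR library. The log2 fold change was 4.54 (95% interval 3.47 to 5.61, adjusted p = 7.82e-06, edgeR's quasi-likelihood test). RASSF6 had enough reads to be tested only through NUAK2-CR, the group in which it was high. The interval and adjusted p-value are therefore not separate support for its increase. The size of the fold rested on few WT reads: without WT replicate 2, which held 13 of the 20, the log2 fold change was 5.55. It did not fall under 4.14 when any other library was left out. Even in NUAK2-CR, RASSF6 remained the least abundant of the 10 genes.

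WWC1 (gene 23286, chromosome 5, 168291645 to 168472303, plus strand) encodes KIBRA, a WW domain scaffold that acts with NF2 upstream of the LATS kinases. Its normalized counts were 2242, 1909 and 1988 in WT and 1161, 1336 and 1203 in NUAK2-CR. Every NUAK2-CR library was below every WT library. The mean went down from 2046 ± 174 to 1233 ± 91.6 (SD, n = 3 each), which is 60.3% of WT, with a log2 fold change of -0.73 (95% interval -0.92 to -0.54, adjusted p = 1.65e-05, edgeR). It was the largest decrease among the 10 genes.

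RASSF6 and WWC1 had the largest increase and the largest decrease of the 10 genes, so the sequences before their starts are shown. The RefSeq promoter windows (GRCh38.p14, 250 bases before to 50 after an annotated start, 1 or 2 windows per gene) were matched for 9 of the 10 genes, giving 13 windows, with STK3 not matched. The 250 bases just before the upstream start of RASSF6 (chr4:73620632-73620881, minus strand) held 4 CpG dinucleotides, and those of its second start (chr4:73620437-73620686) held 13. The 250 bases before WWC1 (chr5:168291395-168291644, plus strand) held 23. The median over the same stretch of all 35116 RefSeq windows was 11. The RASSF6 starts thus lie on either side of the median, and the lowest count among the 9 matched genes was 2, at 1 of the LATS1 starts, whose other start had 31. The stretches before the upstream RASSF6 start and before WWC1 are printed 5′ to 3′ along the gene, with each CpG in capitals. DNA methylation was not measured in these libraries.
RASSF6 upstream 250: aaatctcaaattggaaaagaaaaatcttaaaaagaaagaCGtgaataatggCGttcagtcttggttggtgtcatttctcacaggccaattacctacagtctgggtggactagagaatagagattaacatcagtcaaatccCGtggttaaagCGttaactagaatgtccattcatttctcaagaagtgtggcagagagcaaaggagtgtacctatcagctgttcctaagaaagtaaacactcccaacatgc
WWC1 upstream 250: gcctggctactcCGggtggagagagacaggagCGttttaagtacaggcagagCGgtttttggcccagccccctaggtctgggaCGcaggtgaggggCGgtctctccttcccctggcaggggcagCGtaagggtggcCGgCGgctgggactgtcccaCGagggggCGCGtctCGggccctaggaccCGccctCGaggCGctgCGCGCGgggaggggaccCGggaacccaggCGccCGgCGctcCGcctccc

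NF2 (gene 4771, chromosome 22, 29603556 to 29698600, plus strand) encodes Merlin, the membrane-cytoskeleton linker that recruits LATS kinases to the plasma membrane. Its normalized counts were 14751.5, 10685 and 11279 in WT and 9089, 9550 and 9349 in NUAK2-CR. WT replicate 1 stood well above the other WT libraries, while the NUAK2-CR libraries lay close together and below all of WT. Mean normalized counts were 12238.5 ± 2197 in WT against 9330 ± 231 in NUAK2-CR (SD, n = 3 each), and the log2 fold change was -0.39 (95% interval -0.62 to -0.17, adjusted p = 0.00675, edgeR). Without WT replicate 1 the decrease was smaller and still passed the test, at -0.23 (adjusted p = 0.00243). In that library, the quintile of tested genes with the highest transcript GC content had a median log2 difference of 0.16 from the mean of WT replicates 2 and 3, and the lowest quintile one of -0.13. The transcript of NF2 has a GC content of 55.6%, which falls in the quintile next to the highest, where the median difference of WT replicate 1 was 0.081. With library-specific GC offsets, an alternative chosen after seeing the data, NF2 had a log2 fold change of -0.31. The transcript of WWC1, at 54.4% GC, falls in the same quintile, and WT replicate 1 was also its highest library. For WWC1 the log2 fold change was -0.65 without WT replicate 1 and -0.65 with these GC offsets, beside -0.73 in the main fit.

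Among the kinases, LATS1 (gene 9113, chromosome 6, 149658153 to 149718101, minus strand), which phosphorylates YAP and TAZ, was higher in NUAK2-CR. Its normalized counts were 1568, 1648 and 1540 in WT and 2289, 1954 and 2098 in NUAK2-CR. All NUAK2-CR libraries were above all WT libraries. The mean rose from 1585 ± 55.7 to 2114 ± 168 (SD, n = 3 each), and the log2 fold change was 0.41 (95% interval 0.25 to 0.58, adjusted p = 0.000647, edgeR).

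The other LATS kinase, LATS2 (gene 26524, chromosome 13, 20973036 to 21061586, minus strand), had 1348, 1434 and 1427.5 normalized counts in WT, against 1389, 1219 and 1262.5 in NUAK2-CR. The groups overlapped, since NUAK2-CR replicate 1 lay within the WT range. The log2 fold change was -0.12, with a 95% interval from -0.29 to 0.05 (adjusted p = 0.22, edgeR), so that a small decrease or no change were both within the interval, whereas an increase of the size seen for LATS1 was not. LATS2 is known as a transcriptional target of YAP and TAZ acting through TEAD factors. The TEAD core motif CATTCC was searched with its reverse complement GGAATG so that both strands were covered. It was found in 1 of the 13 promoter windows, which cover 9 of the 10 genes, that of LATS2, and in 14% of all RefSeq windows. The match, shown in capitals within 30 bases around it because it is the only one in these windows, lies at base 10 of the transcript (chr13:21061560-21061589, minus strand). A match in letters does not show that a factor binds there.
LATS2 start region: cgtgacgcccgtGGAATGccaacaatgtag

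The MST kinases were both modestly higher. STK3 (gene 6788, chromosome 8, 98343975 to 98942610, minus strand), which encodes MST2, had 604, 684 and 640 normalized counts in WT, against 839, 767 and 777 in NUAK2-CR, with no overlap. Its log2 fold change was 0.31 (95% interval 0.11 to 0.51, adjusted p = 0.0123, edgeR). STK3 was the only one of the 10 genes whose span overlaps another gene of the table, the potassium channel gene KCNS2 on the opposite strand, and KCNS2 had 0 counts in all 6 libraries.

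STK4 (gene 6789, chromosome 20, 44966512 to 45080021, plus strand), which encodes MST1, had 2540, 2506 and 2397 normalized counts in WT, against 3021, 3014 and 2622 in NUAK2-CR. The lowest NUAK2-CR library was only just above the highest WT library. The log2 fold change was 0.22 (95% interval 0.05 to 0.38, adjusted p = 0.0261, edgeR). The call did not hold without certain libraries: adjusted p was 0.0894 without WT replicate 3, 0.080 without NUAK2-CR replicate 1 and 0.113 without NUAK2-CR replicate 2, with log2 fold changes of 0.19, 0.20 and 0.19.

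Of the adaptors, MOB1B (gene 92597, chromosome 4, 70901851 to 70988168, plus strand), a co-activator that binds the LATS kinases once phosphorylated by MST, showed the clearest increase after RASSF6. Its normalized counts were 1385, 1347 and 1321 in WT and 2171, 1871 and 2063 in NUAK2-CR. The groups were far apart relative to their spread. The mean rose from 1351 ± 32.1 to 2035 ± 152 (SD, n = 3 each), a 1.51-fold difference in means and a log2 fold change of 0.59 (95% interval 0.42 to 0.76, adjusted p = 3.73e-05, edgeR).

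MOB1A (gene 55233, chromosome 2, 74152528 to 74178879, minus strand), the closely similar partner of MOB1B, had 5503, 5768 and 5704 normalized counts in WT, against 5485, 5608 and 5915 in NUAK2-CR. The libraries of both groups were interleaved. The 95% interval of the log2 fold change ran from -0.14 to 0.14 (adjusted p = 0.973, edgeR), and the sign of the estimate, 0.00, changed under 5 of 15 alternatives. Whether reads were assigned to the wrong one of these 2 similar genes was not tested.

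SAV1 (gene 60485, chromosome 14, 50633580 to 50668306, minus strand), the WW domain scaffold of the MST kinases, had 966, 1047 and 1049 normalized counts in WT, against 1040, 982 and 877 in NUAK2-CR. The groups overlapped. The log2 fold change was -0.08, with a 95% interval from -0.27 to 0.12 (adjusted p = 0.48, edgeR).

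**Figure D2:**
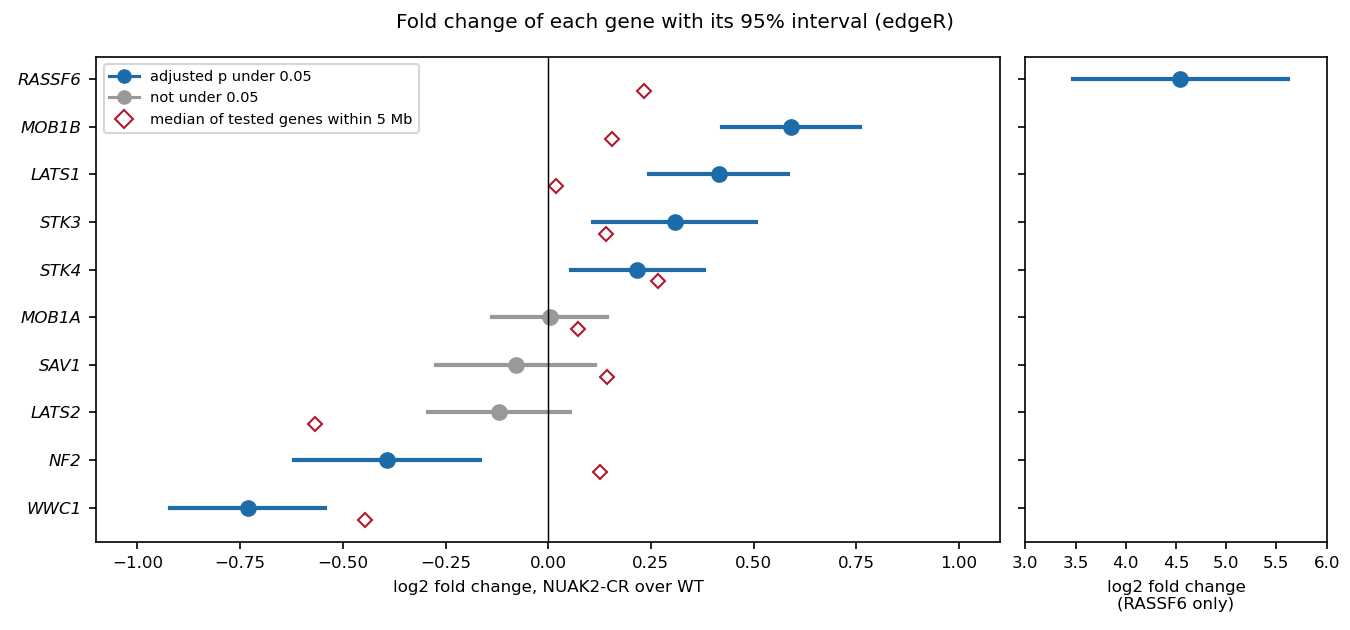
Log2 fold change of NUAK2-CR over WT (x axis) for the 10 genes, with 95% intervals from edgeR, and RASSF6 on a separate axis at right. Blue marks an adjusted p-value under 0.05 and grey the others, and red diamonds are medians over tested genes that start within 5 Mb, which at 0.27 lie close to STK4 itself and are lowest around LATS2, at -0.57.

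The 10 genes lie on 9 chromosomes, and around some of them most called neighbors went the same way. Among all tested genes, 26.3% were called higher and 28.2% lower. Around LATS2, 23 of the 31 tested genes that start within 5 Mb were called lower in NUAK2-CR and 0 were called higher, with a median log2 fold change of -0.57, while LATS2 had -0.12. Around WWC1, 20 of 28 neighbors were lower and 5 higher, with a median of -0.45, beside -0.73 for WWC1. Within 2 Mb of WWC1 the median of 8 genes was -0.81, close to the value of WWC1 itself. Around STK4, 29 of 67 neighbors were higher and 6 lower, and the median of 0.27 was above the 0.22 of STK4.

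The genes around the others had medians from 0.02 to 0.23. LATS1 had 39 neighbors, 8 higher and 10 lower, with a median of 0.02, against 0.41 for the gene. MOB1B had 25 neighbors, 7 higher and 2 lower, with a median of 0.16, against 0.59 for the gene. RASSF6 had 34, 15 higher and 4 lower, with a median of 0.23, against 4.54. MOB1B and RASSF6 start within 5 Mb of each other on chromosome 4, so each counts among the neighbors of the other. NF2, at -0.39, stood in a stretch of 71 genes with a median of 0.13, opposite in sign. Around STK3, where 16 of 51 neighbors were higher and 8 lower, the median was 0.14, beside 0.31 for the gene. The medians around SAV1 and MOB1A were 0.14 and 0.07, beside -0.08 and 0.00. DNA copy number was not measured in these libraries.

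Levels were compared between genes as normalized counts per kilobase of the canonical GENCODE transcript. In WT the order from high to low was NF2, MOB1A, STK4, SAV1, WWC1, LATS2, STK3, LATS1, MOB1B and RASSF6. NF2 stood highest at 2057 ± 369 normalized counts per kilobase (SD, n = 3), followed by MOB1A at 1156 ± 28.3 and STK4 at 390 ± 11.7. SAV1, WWC1, LATS2, STK3, LATS1 and MOB1B lay between 195 and 330, and RASSF6 stood at 0.997 ± 1.01. SAV1 and WWC1 overlapped in their WT ranges, as did STK3 and LATS1, while the other neighbors in the order did not.

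In NUAK2-CR the first 4 places and the last were the same and the middle was rearranged. WWC1 moved from place 5, at 287 ± 24.4 normalized counts per kilobase, to place 9, at 173 ± 12.8 (SD, n = 3). MOB1B took the reverse path, from place 9 at 195 ± 4.64 to place 5 at 294 ± 21.98 (SD, n = 3). LATS1 rose above LATS2, with 287 ± 22.9 against 233 ± 15.9 normalized counts per kilobase in NUAK2-CR and 215 ± 7.56 against 253 ± 8.69 in WT. In NUAK2-CR the ranges of SAV1, MOB1B, LATS1 and STK3 overlapped from each gene to the next, so their order among themselves was not resolved.

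The 3 pairs of paralogs were compared by the ratio of their raw counts within each library, which does not depend on how libraries are scaled. It can still carry GC differences between libraries, and transcript GC content was 51.8% for LATS2 and 39.0% for LATS1. With GC offsets, chosen after seeing the data, the log2 fold change was -0.03 for LATS2 and 0.41 for LATS1. LATS2 over LATS1 was 0.859, 0.871 and 0.927 in WT and 0.607, 0.624 and 0.602 in NUAK2-CR. The groups did not overlap, and the spread within each was small. The log2 ratio differed by -0.54 (exact two-sided permutation test, p = 0.1, the smallest value that 3 against 3 libraries allow, and 0.15 adjusted over the 3 pairs). Per kilobase, LATS2 made up 54.0% ± 1.00 of the LATS pair in WT and 44.8% ± 0.472 in NUAK2-CR (SD, n = 3). The sum of the pair was 468 ± 13.3 normalized counts per kilobase in WT and 520 ± 38.6 in NUAK2-CR (SD, n = 3). The groups were barely apart, since the lowest NUAK2-CR sum, 485, lay just above the highest WT sum, 482.

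MOB1B over MOB1A was 0.252, 0.233 and 0.232 in WT and 0.396, 0.334 and 0.349 in NUAK2-CR, again without overlap. The log2 ratio differed by 0.59 (exact two-sided permutation test, p = 0.1, and 0.15 adjusted over the 3 pairs). Per kilobase, the share of MOB1B in the MOB1 pair went from 14.4% ± 0.571 to 20.2% ± 1.45 (SD, n = 3), so that MOB1A remained the main source of MOB1 transcripts in both groups.

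STK3 over STK4 was 0.238, 0.273 and 0.267 in WT and 0.278, 0.255 and 0.296 in NUAK2-CR. These ranges overlapped, and the log2 ratio differed by 0.09 (exact two-sided permutation test, p = 0.4). Both MST kinases were higher in NUAK2-CR while their ratio showed no separation: per kilobase the pair summed to 617 ± 16.8 normalized counts in WT and 734 ± 43.3 in NUAK2-CR (SD, n = 3).

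**Figure D3:**
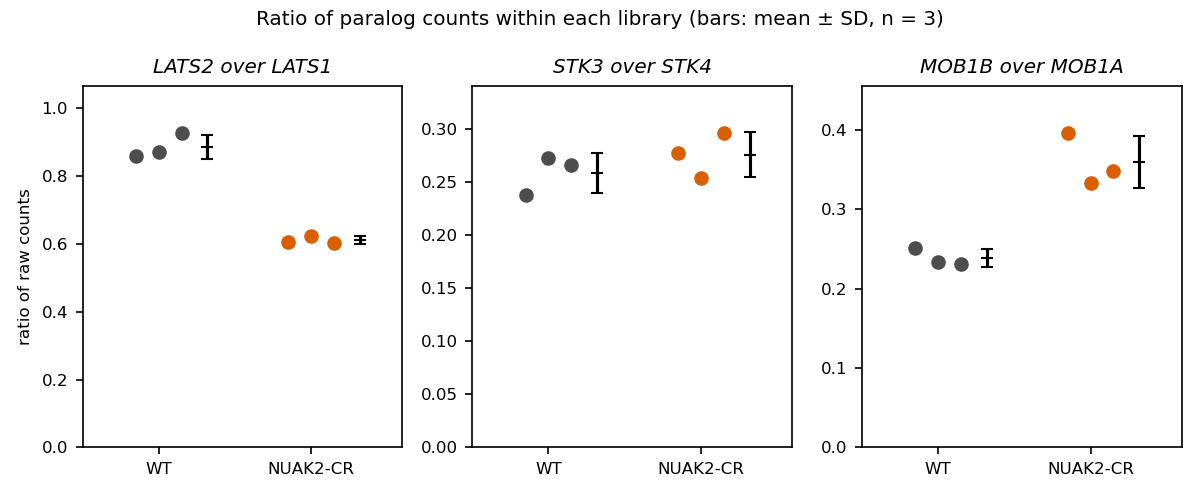
Ratio of the raw counts of 2 paralogs (y axis, linear, from 0) in each WT library (grey) and NUAK2-CR library (orange), with mean ± SD. The LATS2 over LATS1 ratio is lower and the MOB1B over MOB1A ratio higher in every NUAK2-CR library, while the STK3 over STK4 ratios overlap.

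The wider pathway was described with 10 further lists of 85 genes, of which 81 were tested. Of these, 62 passed the test (76.5%, beside 54.5% of all tested genes), 40 higher and 22 lower in NUAK2-CR, with a median log2 fold change of 0.20. All tested genes were higher in 26.3% and lower in 28.2% of cases, and the counts of each list stand beside these shares. MOB4, FRMD1, CRB2 and CRB3 had too few reads, and MOB4 shares its span with the readthrough gene HSPE1-MOB4, which was at 0 in every library, and how reads in this shared span were assigned was not tested. Of the 81 genes, 4 were DEGs: CTTNBP2, RASSF10, FAT2 and DCHS2.

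Among kinases that can activate LATS beside the MST kinases, all 3 TAO kinases passed the test, 2 higher and 1 lower, and the smallest adjusted p was that of TAOK2 (log2 fold change 0.36, adjusted p = 0.000986, edgeR). The lower one was TAOK1 (log2 fold change -0.25, adjusted p = 0.0396, edgeR), whose groups overlapped. Only 2 TAO kinases passed without WT replicate 2, and likewise for replicate 2 or 3 of NUAK2-CR. Of the 7 MAP4K kinases, 2 were higher and 3 lower, with a median of -0.01, where 54.5% of all tested genes passed. Only 3 MAP4K kinases passed when WT replicate 2 was left out, and likewise for replicate 1 or 3 of NUAK2-CR. MAP4K4 had 14740 ± 486 normalized counts in WT against 34871 ± 421 in NUAK2-CR (SD, n = 3 each), and its log2 fold change was 1.24. Its close relative TNIK went the opposite way, from 3452 ± 155 to 1213 ± 113 (SD, n = 3 each), with a log2 fold change of -1.51. Of the 14 tested genes of the STRIPAK phosphatase complex, which dephosphorylates MST and MAP4K kinases, 1 was higher and 4 were lower, together 35.7% of the list beside 54.5% of all tested genes. The higher one was CTTNBP2, a cortactin-binding STRIPAK partner, at 232 ± 42.5 normalized counts in WT against 1738 ± 135 in NUAK2-CR (SD, n = 3 each, log2 fold change 2.92).

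The families of RASSF6 and WWC1 were examined beside them. Of the 9 other RASSF genes, 6 were higher and 2 lower, with a median of 0.57, where 54.5% of all tested genes passed. RASSF2, RASSF3 and RASSF8 had log2 fold changes of 1.69, 1.46 and 1.18. RASSF10, like RASSF6, was close to absent in WT, with 5.31, 8.68 and 0 normalized counts, and reached 36.8, 43.4 and 41.7 in NUAK2-CR (log2 fold change 3.04, adjusted p = 0.000761, edgeR). It too had enough reads to be tested only through NUAK2-CR, so its call is not separate support for the increase. With so few WT reads the log2 fold change of RASSF10 was 3.64 without WT replicate 2 and 2.55 without WT replicate 3. Both of the other WWC scaffolds were higher, in contrast to WWC1, and WWC3 had a log2 fold change of 0.92.

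Of 9 NDR kinases, other MOB proteins and GCKIII kinases, relatives of the LATS, MOB1 and MST proteins, 5 were higher and 3 lower. The shares over all tested genes were 26.3% higher and 28.2% lower. STK38L, which encodes the kinase NDR2, had a log2 fold change of 1.16. Junction and polarity scaffolds were split, with 6 higher and 6 lower of 14 tested. AMOT, angiomotin, which binds YAP and NF2 at junctions, had 8774 ± 513 normalized counts in WT against 3365 ± 123 in NUAK2-CR (SD, n = 3 each), with a log2 fold change of -1.38. SCRIB, a polarity scaffold, had -1.01 (adjusted p = 0.0134, edgeR), and its groups overlapped. DESeq2 gave nearly the same fold change, which did not pass (adjusted p = 0.0808). Leaving out single libraries moved the log2 fold change of SCRIB between -1.48, without NUAK2-CR replicate 3, and -0.74, without WT replicate 3, and the call was lost without that WT library, and likewise for replicates 1 and 2 of NUAK2-CR (edgeR's adjusted p = 0.0705, 0.064 and 0.0656). The other edgeR alternatives kept it.

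All 7 genes of the atypical cadherin list passed the test, 6 higher and 1 lower, where 54.5% of all tested genes passed. Atypical cadherins are large adhesion proteins whose fly relatives act upstream of the cascade. The list also held FJX1, which is not a cadherin. FJX1 was among the higher genes (log2 fold change 0.20, adjusted p = 0.0491, edgeR), and its groups overlapped. With other settings 6 or 7 passed. FAT4, DCHS1 and DCHS2 had log2 fold changes of 1.41, 1.87 and 2.78, and FAT2 one of -2.78. Of 9 LATS regulators, 4 were higher and 2 lower, beside 26.3% and 28.2% of all tested genes. WTIP, a LIM protein that binds LATS kinases, had a log2 fold change of 1.39. Of the 7 effector genes, 6 were higher, 0 lower and 1 did not pass, with a median of 0.57. These were the genes of YAP, TAZ and the TEAD factors, and VGLL4, which had a log2 fold change of 0.34. The largest effector value was that of WWTR1, which encodes TAZ, at 1.13. Beside these medians that of the 10 core genes was 0.11, with both directions among its called genes.

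**Figure D4:**
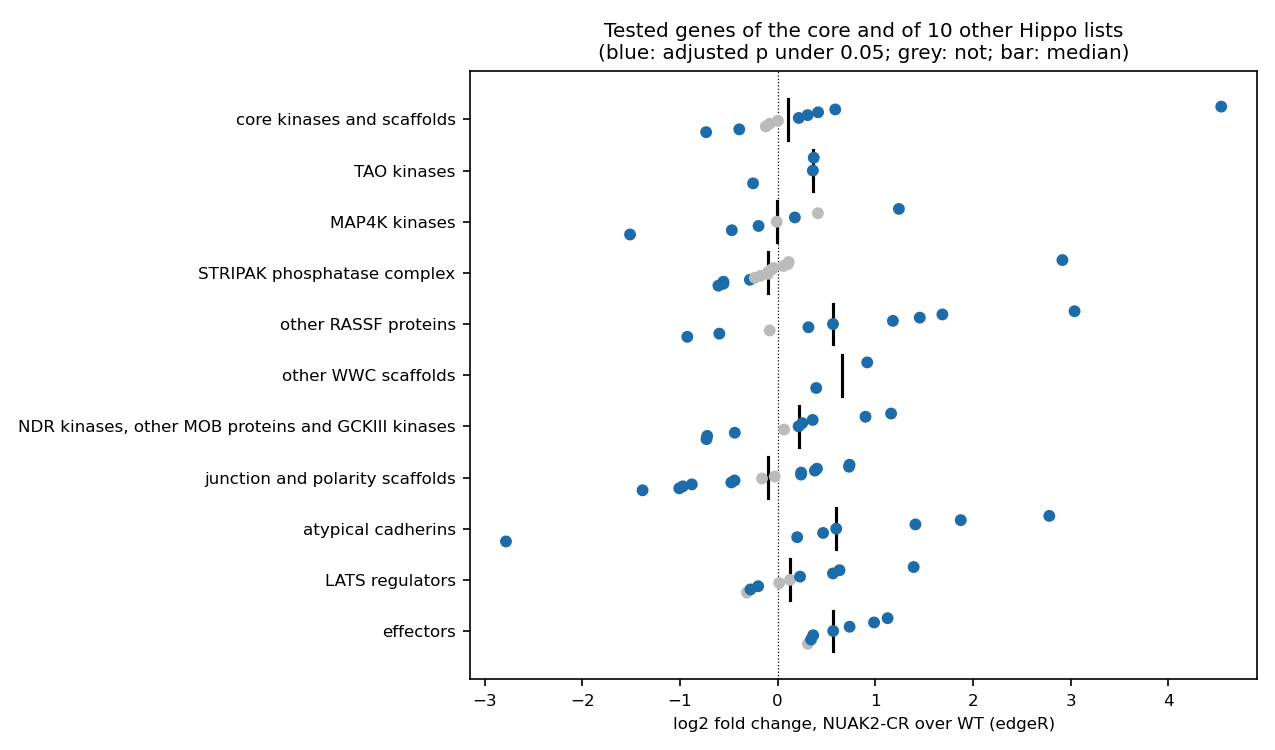
Log2 fold change of NUAK2-CR over WT (x axis) for each tested gene of the 10 core genes (top row) and of 10 further Hippo lists (1 point per gene). Blue marks an adjusted p-value under 0.05, grey the others, and the black bar is the list median, which is 0.11 for the core and 0.57 for the effectors.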

How the data were processed

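RNA-sequencing was done on 6 libraries of U251 cells, 3 WT and 3 NUAK2-CR, grouped by the sample labels. Per the labels and methods, RNA was extracted with TRIzol and libraries were made with a stranded mRNA kit. The authors used bcl2fastq for demultiplexing, Trimmomatic for trimming, HISAT2 for alignment to hg38 and featureCounts, at default parameters, for the raw counts per gene that they deposited. Tool versions from the labels, the gene annotation and the strand setting are not given in the sources used here, so reads of genes overlapping on opposite strands could be mixed. Of the 28395 gene identifiers, 27745 were matched to a symbol.

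Counts were tested with edgeR 4.0.16 in R 4.3.3 (filterByExpr, TMM, quasi-likelihood F test, prior count 0.125), with Benjamini-Hochberg adjustment over 14873 genes, and the script was tested on simulated data. The common biological coefficient of variation was 0.101. Depth is given with the libraries, and intervals come from the model's standard error. Levels per kilobase used GENCODE 44 transcript lengths. Promoter windows came from RefSeq (GRCh38.p14), and spans from RefSeq on the same build. Alternatives were DESeq2 1.42.0, RLE and library-size scaling, other count filters, a prior count of 2, an absolute log2 fold change over 1 in place of 2, a replicate block, 1 count added to each paralog, windows of 2 and 10 Mb, each library left out, and GC offsets (loess, span 0.5).

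The genes, lists and tests were chosen with earlier results of these data known. Named genes are the 10 core genes, NUAK2, genes overlapping a core gene, cell type markers, and in each further list the genes that passed 0.05 after adjustment with a log2 fold change over 1 in either direction, or else that with the smallest adjusted p-value. MOB4, FRMD1, CRB2, CRB3, TAOK1, FJX1, VGLL4 and DEGs of the lists were also named.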

Additional observations from a re-analysis of the deposited data

How the results depend on the processing

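RASSF6, MOB1B, LATS1, STK3, NF2 and WWC1 kept their direction and an adjusted p-value under 0.05 under every alternative that tested them. The number of core genes called was 6 to 7 when each library was left out, the gene lost being STK4, with 4 to 5 higher and 2 to 2 lower. RASSF6 could not be tested when at least 10 counts were required in every library, and the number of DEGs among the core genes was then 0. RASSF6 depended most on WT replicate 2, and NF2 on WT replicate 1. MOB1A changed sign to -0.0038 with no filter beyond 1 count, to -0.01 without WT replicate 1, to -0.017 with GC offsets and to -0.017 with GC offsets and the replicate block, and ranged from -0.028 without NUAK2-CR replicate 3 to 0.044 without NUAK2-CR replicate 1 when libraries were left out. The GC offsets were chosen after seeing the data. The cause of these changes was not tested.

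Medians of neighboring genes moved with the window. Within 2 Mb they were -0.088 for LATS1, -0.43 for LATS2, 0.055 for STK3, 0.20 for STK4 and -0.81 for WWC1, and within 10 Mb 0.18 for STK3, 0.22 for STK4, 0.12 for MOB1A, -0.37 for WWC1 and 0.11 for RASSF6. The median log2 fold change of all tested genes lay between -0.01 and 0.00 under each of the scalings (TMM, RLE, DESeq2, library size).

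The replicate numbers showed no clear pairing of the samples: deviations of same-numbered libraries correlated at 0.043, -0.035 and 0.048, and WT replicate 2 did not correlate best with its own number. Libraries with different numbers correlated between -0.066 and 0.021, so 0.043 and 0.048 were the highest values. Correlations this small cannot exclude a weak pairing. With a replicate block 7 core genes were called, as without it, and 61 genes of the further lists against 62. Counting precision limits RASSF6, which had 1 count in WT replicate 3. The LATS2 over LATS1 and MOB1B over MOB1A ratios, at 3 libraries against 3, could not reach an exact p under 0.1.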
